A study of Mus musculus with 10 samples.

Results

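The genes described here carry and sense bile acids in the intestine. They are Slc10a2, Fabp6, Slc51a and Slc51b, which move bile acids across the ileal enterocyte, Nr1h4 and Nr0b2, which encode the nuclear receptors FXR and SHP, Fgf15, the hormone that FXR induces, and Gpbar1, the membrane bile acid receptor TGR5 of endocrine cells. They were chosen by symbol, as 8 of the 54532 genes in the table, and each symbol was found once. All 8 passed the filter of more than 0.5 cpm (read counts scaled to the size of the library) in at least 3 libraries, which 15703 genes passed. Gpbar1 did so through GUCY2C hi libraries only. In GUCY2C hi cells Gpbar1 was higher, at 10.9 ± 8.02 against 0.173 ± 0.138 cpm (SD, n = 5), and Slc51b was lower, at 12.9 ± 9.46 against 57.3 ± 6.19 cpm, both at an adjusted p under 0.01. The other 6 genes did not pass that test.

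The study asked how intestinal cells with abundant GUCY2C, the guanylyl cyclase C receptor, differ from other epithelial cells. Cells came from the small intestine of 5 litter-matched Gucy2c-GFP mice on the CD1/ICR background, aged 10 weeks, in which the Gucy2c promoter drives GFP. Both groups carry this reporter, no animal received a treatment, and the groups differ only in the GFP gate: high for GUCY2C hi cells and medium for GUCY2C med cells, named both Medium and Lo in the labels. Each of the 10 libraries was made from 20000 live single cells, and the numbers 2, 7, 12, 14 and 15, which occur once in each group, were read as mouse numbers. Over all genes, libraries of the same number did not deviate together, so statements by mouse and fits with the mouse as a block rest on that reading. The gate follows reporter brightness rather than the GUCY2C protein, the stock is outbred, and the intestine was not divided into segments before sorting, so the part of the cells that came from the ileum is not known.

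Bile acids are made in the liver, reach the gut lumen with bile, and are largely recovered in the ileum. SLC10A2 (also called ASBT) takes them up across the brush border, FABP6 binds them in the cytosol, and the SLC51A-SLC51B heteromer (OSTα-OSTβ) exports them into portal blood. Inside the enterocyte they activate FXR, which induces Fgf15, Nr0b2, Fabp6 and both Slc51 genes, and FGF15 travels to the liver to restrain bile acid synthesis. TGR5 is instead a G protein-coupled receptor at the cell surface, known for promoting GLP-1 release from L cells.

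Between 13090212 and 13520800 reads per GUCY2C hi library and between 10903958 and 15307932 per GUCY2C med library were counted on genes. Gucy2c itself averaged 404 cpm with an SD of 64.7 in GUCY2C med cells and 1322 cpm with an SD of 526 in GUCY2C hi cells (n = 5 each), a log2 difference of 1.71 ± 0.32 (SE, adjusted p = 0.00187), higher in 5 of 5 mice. The 16 enteroendocrine markers, among them Chga, Gip and Gcg, summed to between 40297 and 159387 cpm in GUCY2C hi cells and to between 142 and 355 cpm in GUCY2C med cells, and all 16 passed the test as higher, as 13.9% of all genes did. Pax6, on this list, had at most 0.432 cpm in GUCY2C med cells and passed the filter only through GUCY2C hi libraries. The 18 enterocyte markers, such as Apoa1, Fabp2 and Alpi, summed to between 58722 and 76822 cpm in GUCY2C med cells. In GUCY2C hi cells they fell into 2 ranges, from 6420 to 7617 cpm in the libraries of mice 2, 7 and 14, and 32756 and 32914 cpm in those of mice 15 and 12. Libraries 12 and 15 of GUCY2C hi cells therefore stood apart, with 47.1% and 43.1% of the enterocyte marker level of the GUCY2C med library of the same mouse, against 9.06% to 10.9% in the other 3. No marker on either list was at 0 in a GUCY2C hi library. The fit without these 2 libraries is given below for the 8 genes together and for the pathway genes.

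Promoter sequences are shown for the 3 genes that held a match to the motifs below. Fabp6 and Slc10a2 varied together across libraries (r = 0.97 with group means removed), and Nr0b2 did not vary with them (r = -0.23 and -0.10). Slc51a and Slc51b also varied together (r = 0.96) and held no match. A link between the motifs and this variation was not tested. RefSeq entries on GRCm38.p6 were matched for 7 of the 8 genes, the exception being Fgf15. The 250 bases before the start site of each gene, 5′ to 3′ on the strand of the gene, lie at chr11:43601563-43601812 on the minus strand for Fabp6, chr8:5105288-5105537 on the minus strand for Slc10a2 and chr4:133553126-133553375 on the plus strand for Nr0b2. Capitals mark matches to 3 motifs that were picked with the sequences in view.
Fabp6: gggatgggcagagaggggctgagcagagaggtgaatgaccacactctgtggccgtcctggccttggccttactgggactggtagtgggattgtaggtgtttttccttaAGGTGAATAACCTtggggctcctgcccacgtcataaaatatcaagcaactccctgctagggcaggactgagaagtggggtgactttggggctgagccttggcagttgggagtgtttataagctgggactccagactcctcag
Slc10a2: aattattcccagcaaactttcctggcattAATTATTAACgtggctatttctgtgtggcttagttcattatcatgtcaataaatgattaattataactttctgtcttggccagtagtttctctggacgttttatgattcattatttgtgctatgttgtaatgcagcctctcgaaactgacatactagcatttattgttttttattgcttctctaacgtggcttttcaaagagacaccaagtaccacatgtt
Nr0b2: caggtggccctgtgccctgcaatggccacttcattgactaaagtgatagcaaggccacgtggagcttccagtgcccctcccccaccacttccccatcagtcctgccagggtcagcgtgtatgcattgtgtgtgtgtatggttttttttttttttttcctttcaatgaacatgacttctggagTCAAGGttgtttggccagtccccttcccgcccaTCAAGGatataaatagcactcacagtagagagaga

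The capitals in Fabp6 match the half-sites AGGTNA and TNACCT, where N is any base, set 1 base apart, an inverted repeat (IR-1) of the kind FXR binds, which reads the same on both strands. The match starts 142 bases before the start site, and 7 of 32851 RefSeq promoters (0.0213%) hold this motif in the 300 bases from 250 before to 50 after the start. In Slc10a2 the capitals match GTTAAT followed by any base and ATT, a form of the HNF1 motif, on the opposite strand from 221 bases before the start, which 131 promoters (0.399%) hold. The 2 matches in Nr0b2, starting 68 and 35 bases before the start, are to TCAAGG, the core bound by NR5A receptors such as LRH-1, which 4744 promoters (14.4%) hold. Both strands were searched, no matches overlapped, and these 3 motifs had no match in the promoters of Slc51a, Slc51b, Nr1h4 and Gpbar1. The search covered only the RefSeq start site matched for each gene. For Nr1h4 the bases searched, chr10:89506609-89506908, lie inside the gene as counted, so its outermost start was not searched. For Slc10a2, Slc51b and Gpbar1 part of the 250 bases lies inside the gene as counted. A match is a description of letters and not evidence of a bound site.

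**Figure D1:**
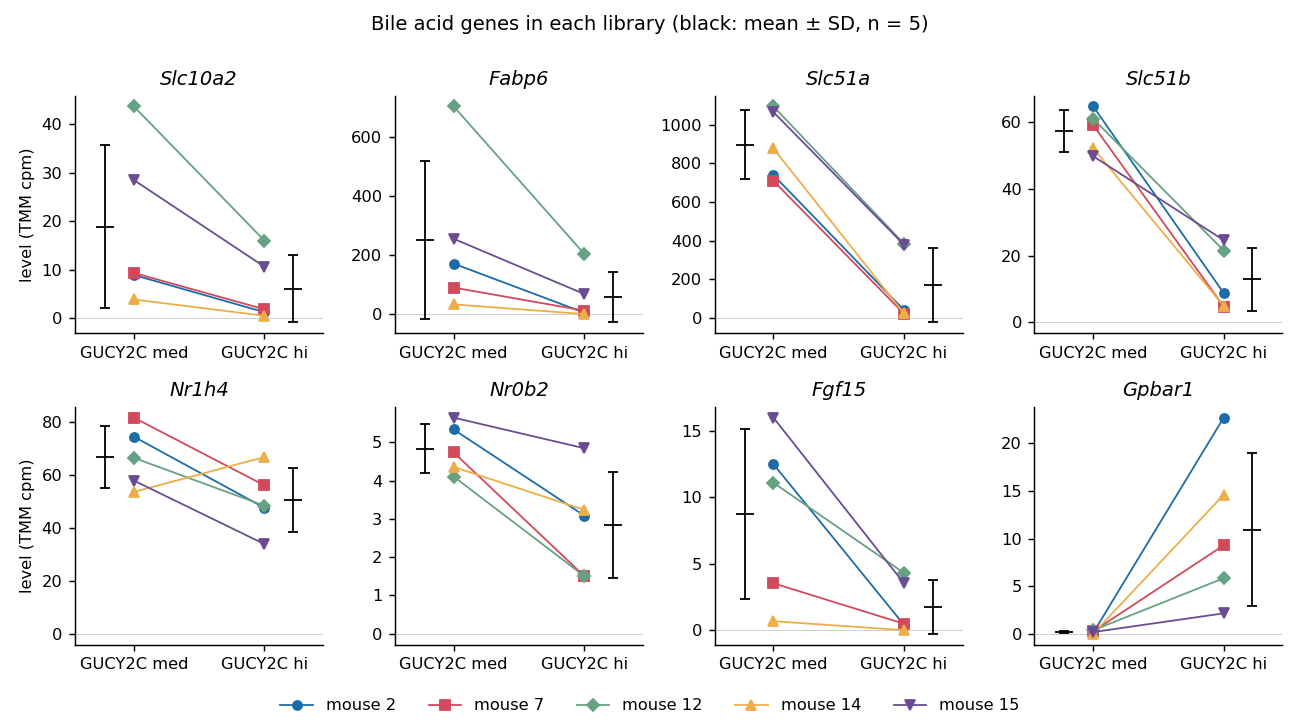
Level of each gene in TMM-normalized cpm (linear axes from 0, a different range for each gene) in GUCY2C med and GUCY2C hi libraries, with a line joining the libraries that share a mouse number and black bars for the mean ± SD of 5 libraries. Lines fall in all 5 mice for Slc10a2, Fabp6, Slc51a, Slc51b, Nr0b2 and Fgf15, cross for Nr1h4 and rise for Gpbar1.

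Levels are TMM-normalized cpm, and each fold change is the log2 difference of GUCY2C hi minus GUCY2C med cells from edgeR's quasi-likelihood test with Benjamini-Hochberg adjustment over all 15703 genes. At an adjusted p under 0.01, 1 of the 8 genes was higher, against a background of 13.9% of all genes tested, and 1 was lower, against 8.79%. Of the other comparisons by library, 6 of the 8 genes were lower in GUCY2C hi cells in all 5 mice (23.1% of all genes were), and 2 of the 8 had groups that did not overlap with GUCY2C hi lower (13.2% of all genes did). The median log2 difference of the 8 genes was -1.88, with 7 of the 8 negative, beside 0.09 over all genes, of which 45.4% were negative. Because these are bulk libraries, fewer cells of a type and less RNA per cell cannot be told apart.

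Uptake begins with Slc10a2 (ENSMUSG00000023073, GRCm38 chromosome 8, 5083219 to 5105351, minus strand), the sodium-dependent transporter of the ileal brush border. In GUCY2C med cells it measured 8.89, 9.31, 43.7, 3.83 and 28.5 cpm in mice 2, 7, 12, 14 and 15. The same mice gave 1.21, 1.81, 16, 0.463 and 10.6 cpm in GUCY2C hi cells. Mice 12 and 15 were the highest and mouse 14 the lowest in both groups, and the 5 mice stood in the same order in both. Each GUCY2C hi library was below that of its own mouse, at 12.1% to 37.1% of its level, yet the groups overlapped through GUCY2C hi libraries 12 and 15. The means were 6.02 ± 6.95 cpm and 18.9 ± 16.8 cpm (SD, n = 5 each), and the log2 difference of -1.65 ± 0.91 (SE) had an adjusted p of 0.176. With the mouse number as a block in edgeR the difference was -2.15 ± 0.32 and passed the threshold (adjusted p = 0.0048, with 4.96% of all genes called lower in that fit).

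Fabp6 (ENSMUSG00000020405, chromosome 11, 43596049 to 43601540, minus strand), is the cytosolic bile acid binding protein of the ileal enterocyte. Its level in GUCY2C med cells was 171, 90.0, 702, 33.1 and 255 cpm in mice 2, 7, 12, 14 and 15, a 21.2-fold range. In GUCY2C hi cells it was 5.25, 12.2, 204, 0.54 and 68.3 cpm. Library 12 was again the highest and library 14 the lowest in both groups, and every GUCY2C hi library was lower than its partner, at 1.63% of it in mouse 14 and 29.1% in mouse 12. The means of 58.1 ± 86.1 and 250.2 ± 266 cpm overlapped, and the log2 difference of -2.11 ± 1.20 did not pass the test (adjusted p = 0.193). Blocking on the mouse gave -3.30 ± 0.68 in edgeR (adjusted p = 0.0114) and -3.03 ± 0.54 in limma-voom (adjusted p = 0.00461), so that the call depended on the tool. Without the GUCY2C med library of mouse 12 the unblocked difference was -1.16, and without the GUCY2C hi library of mouse 12 it was -3.53 (adjusted p = 0.501 and 0.0439).

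For both genes of the export heteromer the 2 groups did not overlap. Slc51a (ENSMUSG00000035699, chromosome 16, 32474504 to 32487879, minus strand) encodes OSTα. It measured 740, 710, 1094, 877 and 1065 cpm in GUCY2C med cells of mice 2, 7, 12, 14 and 15, and 42.1, 23.4, 385, 24.7 and 380 cpm in GUCY2C hi cells. GUCY2C hi libraries 12 and 15 held 35.2% and 35.6% of the level of their mouse, and the other 3 held between 2.81% and 5.69%. The means were 171 ± 193 and 897 ± 179 cpm, and with this spread the log2 difference of -2.39 ± 0.79 missed the threshold in edgeR (adjusted p = 0.0326). It passed in DESeq2 (-2.36 ± 0.73, adjusted p = 0.00402, 14.2% of all genes called lower) and in limma-voom (-3.44 ± 0.85, adjusted p = 0.00782, 11.4%). With the mouse as a block the values were -3.48 ± 0.74 in edgeR (adjusted p = 0.0126) and -3.56 ± 0.59 in limma-voom (adjusted p = 0.00366). Slc51a shares bases with the end of Pcyt1a on the other strand, which had 9265 counts over all libraries, and the counting is not stated to use strand.

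Slc51b (ENSMUSG00000053862, chromosome 9, 65412714 to 65422955, minus strand) encodes OSTβ, which its partner needs to reach the membrane. It was the steadiest of the transport genes in GUCY2C med cells, with 64.6, 59.0, 60.9, 52.1 and 49.7 cpm in mice 2, 7, 12, 14 and 15, a 1.3-fold range. GUCY2C hi libraries of the same mice had 8.81, 4.76, 21.5, 4.93 and 24.6 cpm. All were lower, with libraries 12 and 15 again the highest of the group, at 35.3% and 49.5% of their mouse against 8.07% to 13.6% in the others. The means of 12.9 ± 9.46 and 57.3 ± 6.19 cpm differed by -2.15 ± 0.45 on the log2 scale, which passed the test (adjusted p = 0.00355). The call was lost when GUCY2C hi library 2 or GUCY2C med library 2, 12, 14 or 15 was left out, with differences of -1.96, -2.04, -2.04, -2.12 and -2.14 and adjusted p of 0.0146, 0.0123, 0.0125, 0.012 and 0.0115. Per length, Slc51a stood above Slc51b in every library, by 4.42- to 8.27-fold in FPKM in GUCY2C med cells, by 5.95- and 6.92-fold in GUCY2C hi libraries 15 and 12, and by 1.85- to 1.93-fold in the other 3. On the gene length in the table the ratios were lower, at 2.54 to 4.75, 3.42 and 3.97, and 1.06 to 1.11. On both scales the ratio in those 3 libraries lay below every other library.

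FXR is encoded by Nr1h4 (ENSMUSG00000047638, chromosome 10, 89454234 to 89533585, minus strand), and its difference did not pass the test. It measured 74.5, 81.7, 66.5, 53.6 and 57.9 cpm in GUCY2C med cells of mice 2, 7, 12, 14 and 15, and 47.6, 56.1, 48.4, 66.8 and 33.9 cpm in GUCY2C hi cells. It was lower in 4 mice and higher in mouse 14, and the groups overlapped. The means were 50.6 ± 12.1 and 66.8 ± 11.6 cpm, and the log2 difference was -0.40 ± 0.20 (adjusted p = 0.127). Every alternative left it uncalled, with a difference of -0.14 when library size alone set the scale, a scale on which the median of all genes was 0.39.

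Nr0b2 (ENSMUSG00000037583, chromosome 4, 133553376 to 133556536, plus strand) encodes SHP, the corepressor that FXR induces. Its level was low, at 5.34, 4.74, 4.11, 4.36 and 5.65 cpm in GUCY2C med cells of mice 2, 7, 12, 14 and 15, and 3.09, 1.51, 1.51, 3.24 and 4.85 cpm in GUCY2C hi cells. GUCY2C hi was lower in 5 of 5 mice, at 31.8% to 85.8% of the paired level, and the groups overlapped through library 15. The log2 difference of -0.76 ± 0.35 between means of 2.84 ± 1.40 and 4.84 ± 0.649 cpm did not pass (adjusted p = 0.107). Unlike the transport genes, Nr0b2 was not high in GUCY2C hi library 12, which shared the lowest level with library 7.

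Fgf15 (ENSMUSG00000031073, chromosome 7, 144896531 to 144900953, plus strand), the hormone of this pathway, did not pass the test, although its GUCY2C hi level was below the GUCY2C med level in all 5 mice. In GUCY2C med cells it measured 12.5, 3.53, 11.1, 0.676 and 16 cpm in mice 2, 7, 12, 14 and 15. GUCY2C hi cells gave 0.403, 0.482, 4.31 and 3.53 cpm in mice 2, 7, 12 and 15, and no count in mouse 14, which allows up to 0.231 cpm. The 9 counts of GUCY2C med library 14 were the lowest of that group, a 23.7-fold range below library 15, and GUCY2C hi libraries 12 and 15 lay within the GUCY2C med range. The means of 1.75 ± 2.01 and 8.77 ± 6.42 cpm gave a log2 difference of -2.32 ± 1.02 (adjusted p = 0.0926). With the mouse as a block it was -2.90 ± 0.64 in edgeR (adjusted p = 0.0142) and -2.52 ± 0.52 in limma-voom (adjusted p = 0.00759, with 8.8% of all genes called lower). Antisense rows that overlap Fgf15 held 28 and 1 counts over all libraries.

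**Figure D2:**
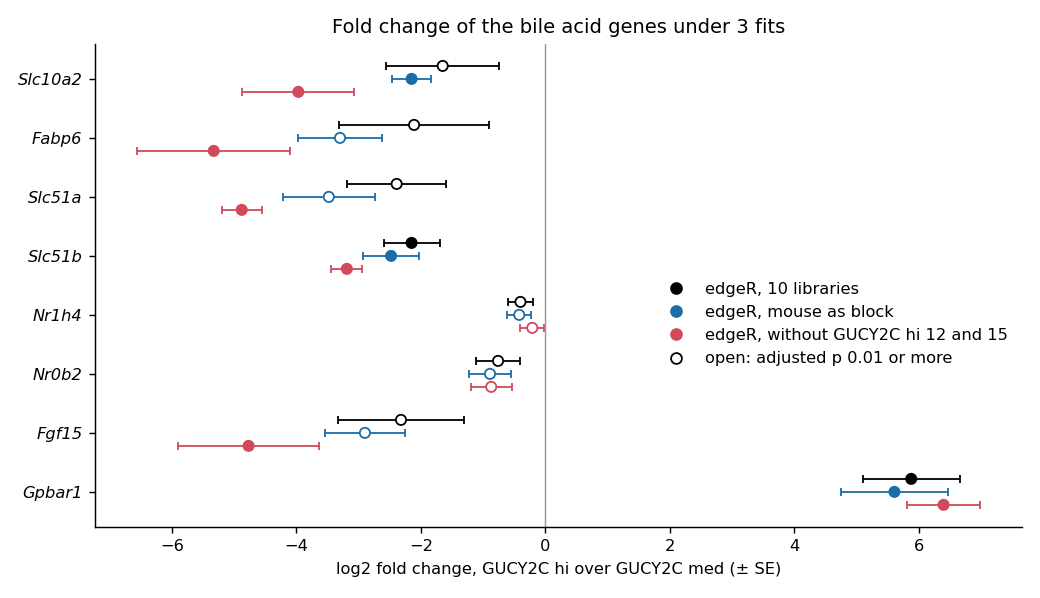
Log2 fold change of GUCY2C hi over GUCY2C med cells with its SE for the 8 genes, from edgeR with all 10 libraries, with the mouse number as a block, and without GUCY2C hi libraries 12 and 15. Filled points have an adjusted p under 0.01. Slc51b and Gpbar1 are filled in all 3 fits, Slc10a2 also with the block, and Slc10a2, Fabp6, Slc51a and Fgf15 without the 2 libraries.

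Leaving out GUCY2C hi libraries 12 and 15 together raised the count of genes called lower from 1 to 5 of 8, where 13.9% of all genes were called lower. The log2 difference was then -5.33 ± 1.23 for Fabp6 (adjusted p = 0.00568), -4.88 ± 0.32 for Slc51a (adjusted p = 2.63e-06), -4.77 ± 1.14 for Fgf15 (adjusted p = 0.00668), -3.97 ± 0.90 for Slc10a2 (adjusted p = 0.00494) and -3.19 ± 0.25 for Slc51b (adjusted p = 8.11e-06). Nr1h4 at -0.21 ± 0.19 and Nr0b2 at -0.87 ± 0.33 still did not pass. The 2 libraries were picked for their enterocyte marker sums in these same data. They were also the 2 highest GUCY2C hi libraries for each of the 5 genes called lower. Leaving them out lowers the GUCY2C hi level of these genes by selection, so the adjusted p of this fit are descriptions and not independent tests. Beside these values, the summed enterocyte markers were 32756 and 32914 cpm in the 2 libraries left out and at most 7617 cpm in the other 3, and the part of enterocyte RNA in the differences was not tested.

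Gpbar1 (ENSMUSG00000064272, chromosome 1, 74278550 to 74279624, plus strand), the receptor TGR5, moved the other way. GUCY2C hi libraries had 337, 154, 77, 190 and 34 counts in mice 2, 7, 12, 14 and 15, which is 22.7, 9.29, 5.83, 14.6 and 2.14 cpm. GUCY2C med libraries had 1, 3, 5, 0 and 2 counts, at most 0.36 cpm. Gpbar1 passed the filter only through GUCY2C hi libraries, so a difference in this direction was in part selected by the filter. Every GUCY2C hi library lay above every GUCY2C med library, as was true of 16.7% of all genes in this direction, and 24.2% of all genes were higher in all 5 mice. With the mouse as a block it still passed (5.61 ± 0.86, adjusted p = 0.00535, with 8.24% of all genes called higher). The log2 difference was 5.88 ± 0.78 (adjusted p = 0.000256), and it passed with each of the 10 libraries left out in turn, at 5.46 to 6.36. Since the GUCY2C med counts were few, the ratio of summed counts per library size is also given: 792 against 11 counts, 60.7-fold, with an exact 95% interval of 33.8 to 122 that covers counting error only.

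Among GUCY2C hi cells Gpbar1 was lowest in library 15, which also had the lowest summed enteroendocrine markers (40297 cpm) and L cell markers (11230 cpm). Library 2 was the highest for Gpbar1, whereas library 14 had the highest sums of both lists. Over all 10 libraries with group means removed, Pearson's r of log2 Gpbar1 was 0.34 with the enteroendocrine sum and -0.61 with the enterocyte sum. Myeloid cells are another known source of TGR5, and the 8 myeloid markers summed to between 2.95 and 8.54 cpm in GUCY2C hi cells and to between 2.9 and 4.75 cpm in GUCY2C med cells, with 3 of 8 markers passing the filter and none of them called. The highest myeloid sum was in GUCY2C hi library 2, whereas library 14, the next highest for Gpbar1, had 3.16 cpm. The part of endocrine or myeloid cells in the Gpbar1 difference was not tested.

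**Figure D3:**
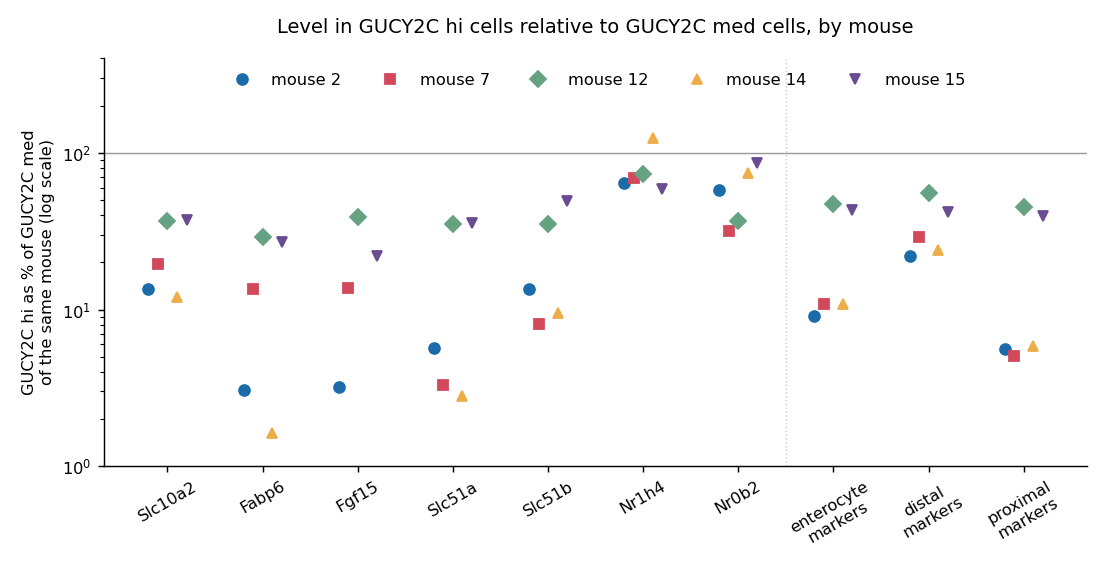
Level in GUCY2C hi cells as a percent of the GUCY2C med level of the same mouse number, on a log axis with a line at equality, for 7 genes and for the summed enterocyte, distal and proximal enterocyte markers. Each symbol is 1 mouse, and Fgf15 has no point for mouse 14, where its GUCY2C hi count was 0. Mice 12 and 15 sit above mice 2, 7 and 14 for the transport genes and the marker sums but not for Nr1h4 and Nr0b2.

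The genes were also set against the enterocyte RNA of their library. Slc51b divided by the summed enterocyte markers of its library differed between groups by -0.05 on the log2 scale, with an SD of 0.33 within groups, but by -0.85 (SD 0.47) against distal and 0.53 (SD 0.48) against proximal enterocyte markers. The differences for Slc10a2, Fabp6, Fgf15 and Slc51a were 0.23 (SD 1.26), -1.05 (SD 2.04), -0.64 (SD 1.86) and -1.01 (SD 0.65), of which the last exceeded its SD. On the same measure Nr1h4 and Nr0b2 stood 2.01 (SD 1.09) and 1.54 (SD 0.96) higher in GUCY2C hi cells, and Gpbar1 8.08 (SD 1.97) higher. The enterocyte sum was itself lower in every GUCY2C hi library, so a gene with an unchanged level also rises on this measure. In cpm, Nr1h4 and Nr0b2 were not higher, with log2 differences of -0.40 and -0.76. Against the markers of endocrine cells Gpbar1 ran the other way, at -3.02 (SD 1.26) relative to the enteroendocrine list and -3.81 (SD 1.29) relative to the L cell list, with GUCY2C med values that rest on 0 to 5 counts. Against the enterocyte list the groups overlapped for all genes but Gpbar1, whose groups did not overlap against the L cell list either. These ratios are descriptions, with no test, and none of the 8 genes is on the marker lists. Of the 18 enterocyte markers themselves, 5 passed the test as lower and 13 did not, beside 8.79% of all genes called lower, with a median log2 difference of -2.15.

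Within GUCY2C med cells the genes differed in their spread between mice. Fabp6, Fgf15 and Slc10a2 ranged 21.2-, 23.7- and 11.4-fold over the 5 mice, while Slc51a ranged 1.54-fold and Slc51b 1.3-fold. For Fabp6 and Slc10a2 mouse 12 was the highest and mouse 14 the lowest, and for Fgf15 mouse 15 was the highest and mouse 14 the lowest. A list of 8 distal enterocyte markers, among them Clec2h, Cubn and Naaladl1, ranged 2.34-fold between 1263 cpm in mouse 7 and 2958 cpm in mouse 2, and a list of 8 proximal markers such as Rbp2 and Lct ranged 1.22-fold. Neither list placed the mice in the order of Fabp6. Slc10a2, Fabp6 and Fgf15 are known as genes of the distal intestine, and how much distal tissue each library held was not measured.

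**Figure D4:**
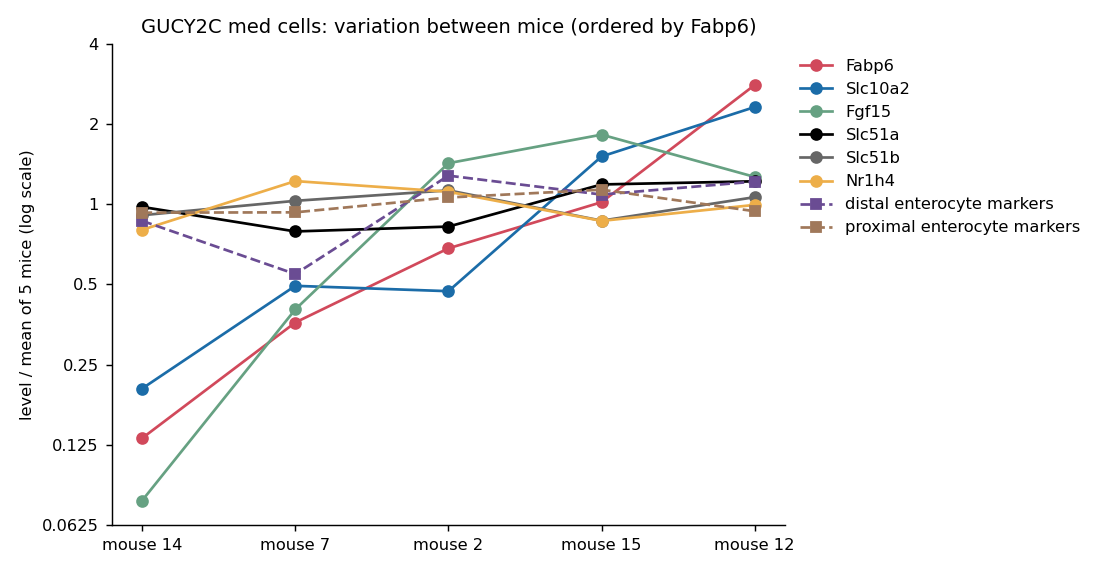
Level in each GUCY2C med library divided by the mean of the 5 mice (log axis), with mice placed from the lowest to the highest Fabp6. Fabp6, Slc10a2 and Fgf15 climb from mouse 14 towards mice 15 and 12, while Slc51a, Slc51b, Nr1h4 and the summed distal and proximal enterocyte markers (dashed) stay nearer to 1.

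Variation between libraries, after the mean of each group was subtracted, paired the same genes. Over 10 libraries, which share their gates and mice, Pearson's r of log2 cpm was 0.97 between Fabp6 and Slc10a2, 0.94 between Fabp6 and Fgf15, 0.91 between Slc10a2 and Fgf15, and 0.96 between Slc51a and Slc51b. With the enterocyte marker sum r was 0.98 for Slc51a, 0.93 for Slc51b, 0.74 for Fabp6 and 0.14 for Nr0b2, and for Nr1h4 it was -0.61. These are descriptions of 10 libraries, in which GUCY2C hi libraries 12 and 15 carry much of the enterocyte range.

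The 3 genes most like each member on this measure, among all genes averaging at least 1 cpm, were partly other members. Slc25a48, a mitochondrial carrier, came first for Fabp6 (r = 0.978) and Slc10a2 (r = 0.979), although it averaged only 0.392 cpm in GUCY2C hi and 2.46 cpm in GUCY2C med cells. After it came Slc10a2 and Fgf15 for Fabp6, and Fabp6 and the acute phase gene Saa1 (r = 0.944) for Slc10a2. For Fgf15 the list was Slc39a14, a zinc and iron importer (r = 0.956), Fabp6 and Slc25a48. Slc51a was matched by Selenbp1, Pm20d1 and Mogat2, the last an enzyme of fat absorption (r = 0.997, 0.997 and 0.995), and Slc51b by Reg3a, Mcoln2 and S100g, each with r = 0.984. Nr1h4 was matched by Mlst8 (r = 0.953), Tmem117 and the bile acid hydroxylase Cyp2c70 (both 0.937). The closest genes to Nr0b2 were Hal, Adgrv1 and Abcg2 (r = 0.878, 0.862 and 0.861), and those to Gpbar1 were E130311K13Rik, Trim14 and Pdlim4 (r = 0.941, 0.936 and 0.929).

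Levels between genes can be set side by side only per length, as FPKM. In GUCY2C med cells Fabp6 averaged 471 ± 502 FPKM and Slc51a 441 ± 69.8, and they did not differ beyond their spread. Slc51b followed at 73.8 ± 12.3 FPKM, apart from Slc51a but within the spread of Fabp6, which in library 14 measured 61.9 FPKM against 65.8 for Slc51b. Nr1h4 came next at 30.8 ± 6.89 FPKM. Fgf15 at 7.08 ± 5.03 FPKM, Slc10a2 at 4.04 ± 3.56 and Nr0b2 at 3.88 could not be ordered given their spread, and Gpbar1 was last at 0.146 ± 0.117 FPKM. In GUCY2C hi cells the order was Fabp6 (127 ± 178 FPKM), Slc51a (102 ± 115), Nr1h4 (27.9 ± 6.35), Slc51b (20.1 ± 15), Gpbar1 (11.1 ± 8.08), Nr0b2 (2.79), Fgf15 (1.71) and Slc10a2 (1.57), and each gene overlapped its neighbours within their SD. The deposited FPKM of 5 of the genes equal counts per kilobase of the length in the table by the FPKM definition, whereas those of Slc51a, Nr1h4 and Fgf15 are 1.74, 1.16 and 2.75 times as high. On the table length Slc51a averaged 253 on the FPKM scale in GUCY2C med cells, still within the spread of Fabp6.

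Of 36 other genes of the pathway, 29 were tested, and 4 were higher, 11 lower and 14 not called, with a median log2 difference of -0.90 beside 0.09 over all genes. Of all genes tested 13.9% were higher and 8.79% lower, so the share of pathway genes called higher was near the background. Without GUCY2C hi libraries 12 and 15 the counts were 6 higher and 15 lower, where 17.4% and 13.9% of all genes were called. Of 8 further bile acid transporters 6 were tested, with 1 higher and 3 lower. Abcc4 (MRP4), an efflux pump that can carry bile acids, was higher, with 2.83 to 10.3 cpm in GUCY2C hi and 0.3 to 1.73 cpm in GUCY2C med cells and a log2 difference of 3.11 ± 0.53 (adjusted p = 0.00123). GUCY2C med libraries had 0.468, 0.482, 1.73, 0.3 and 0.941 cpm, so Abcc4 met the filter only with GUCY2C hi libraries. A difference in this direction was therefore in part selected. Abcc2 (MRP2), the apical conjugate export pump, was lower at 11.9 ± 6.63 against 48.9 ± 13.1 cpm (-2.03 ± 0.36, adjusted p = 0.00159). The uptake carrier Slco2b1 (-2.48 ± 0.59, adjusted p = 0.0069) and the apical exporter Abcg2 (-0.83 ± 0.20, adjusted p = 0.00683) were also lower. The basolateral exporter Abcc3 measured 76.0 ± 23.6 and 61.5 ± 9.96 cpm and Abcb1a 55.4 ± 14.5 and 99.8 ± 38.5 cpm, and neither passed. Slc10a1 and Abcb11, the hepatocyte transporters, were below the filter.

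Receptors and FXR partners numbered 10, of which 9 were tested, with 1 higher and 4 lower (13.9% and 8.79% of all genes). Rxra, the usual partner of FXR in the heterodimer, was lower at 16.7 ± 4.4 cpm in GUCY2C hi against 49.2 ± 15.2 cpm in GUCY2C med cells (-1.56 ± 0.26, adjusted p = 0.000977), while Rxrb measured 36.8 ± 3.98 and 42.3 ± 4.70 cpm and did not pass. Of nuclear receptors besides FXR that bind bile acids, Vdr was lower by a log2 difference of -1.76 ± 0.28 (adjusted p = 0.000873) and Nr1i2 (PXR) by -1.25 ± 0.22 (adjusted p = 0.00144). FXR itself, as given above, was not called. Nr5a2 (LRH-1), of the NR5A receptors, was low in both groups, at 0.746 ± 0.444 and 2.67 ± 0.843 cpm (-1.83 ± 0.45, adjusted p = 0.00827). S1pr2, a sphingosine 1-phosphate receptor that conjugated bile acids also activate, was higher, at 3.45 ± 0.757 against 0.961 ± 0.381 cpm (1.84 ± 0.35, adjusted p = 0.00223). Hnf4a, at 110.7 ± 18.8 and 135 ± 31.9 cpm, was not called.

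Synthesis and conjugation genes numbered 12, and the 8 tested held none higher and 4 lower, where 13.9% and 8.79% of all genes were. Cyp7a1, the rate-limiting enzyme of the liver pathway, had 1 count over all libraries, and Cyp8b1, Cyp7b1 and Hsd3b7 were below the filter as well. Those called lower were Cyp27a1, which starts the alternative pathway (-2.0 ± 0.51, adjusted p = 0.00983), and Amacr, Hsd17b4 and Scp2 of peroxisomal side chain shortening (-1.02 ± 0.17, -1.70 ± 0.29 and -1.15 ± 0.28, adjusted p = 0.00122, 0.00123 and 0.00784). Peroxisomal side chain enzymes also act on fatty acids.

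Of 6 FGF15 receptors and regulators, all tested, 2 were higher and none was lower, where 13.9% and 8.79% of all genes were. FGF15 signals through FGFR4 with the coreceptor β-Klotho, the product of Klb. Klb measured 11.7, 16.7, 7.27, 17.4 and 4.35 cpm in GUCY2C hi cells of mice 2, 7, 12, 14 and 15, while the GUCY2C med libraries held 2 counts in all, both in mouse 12. The ratio of 842 to 2 counts was 355-fold per library size (exact 95% interval 98 to 2938, counting error only), and the edgeR test passed (adjusted p = 2.74e-05). Like Gpbar1, Klb passed the filter only through GUCY2C hi libraries, so a difference in this direction was in part selected. Fgfr4 measured 6.53 ± 2.94 against 2.56 ± 0.720 cpm, higher in 4 of 5 mice, and did not pass (1.35 ± 0.38, adjusted p = 0.0146), but it passed without GUCY2C hi libraries 12 and 15 (1.74 ± 0.31, adjusted p = 0.00137). Fgfr2 was higher, at 14.5 ± 7.51 against 4.06 ± 1.17 cpm (1.83 ± 0.38, adjusted p = 0.00344), and Fgfr1, Fgfr3 and the FGF15 regulator Malrd1 were not called. Fgfr3 passed without the 2 libraries (1.63 ± 0.37, adjusted p = 0.00517).

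With the mouse as a block in edgeR 7 of the 15 calls on pathway genes were lost, namely Abcc4 (adjusted p = 0.0117), Fgfr2 (0.0181), Abcg2 (0.0107), Cyp27a1 (0.0102), Nr5a2 (0.0296), Scp2 (0.0126) and Slco2b1 (0.0157). With 1 library left out in turn, Abcc2, Abcc4, Amacr, Fgfr2, Hsd17b4, Klb, Nr1i2, Rxra, S1pr2 and Vdr were called in 10 of 10 fits, Nr5a2, Scp2 and Slco2b1 in 2, and Abcg2 and Cyp27a1 in 1.

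Leaving out GUCY2C hi libraries 12 and 15 together kept all 15 of these calls and added 6. Besides Fgfr3 and Fgfr4, those added were lower, namely Nr1i3 (CAR, a xenobiotic receptor) at -4.73 ± 0.55 (adjusted p = 9.1e-05), the conjugation genes Baat at -4.19 ± 0.80 (adjusted p = 0.00197) and Slc27a5 at -3.33 ± 0.46 (adjusted p = 0.000253), and the peroxisomal oxidase Acox2 at -2.93 ± 0.72 (adjusted p = 0.00769). Slco2b1 moved to -3.96, Cyp27a1 to -3.14 and Abcc2 to -2.75. The libraries left out were picked for their enterocyte marker sums, so the adjusted p of this fit are descriptions here too.

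**Figure D5:**
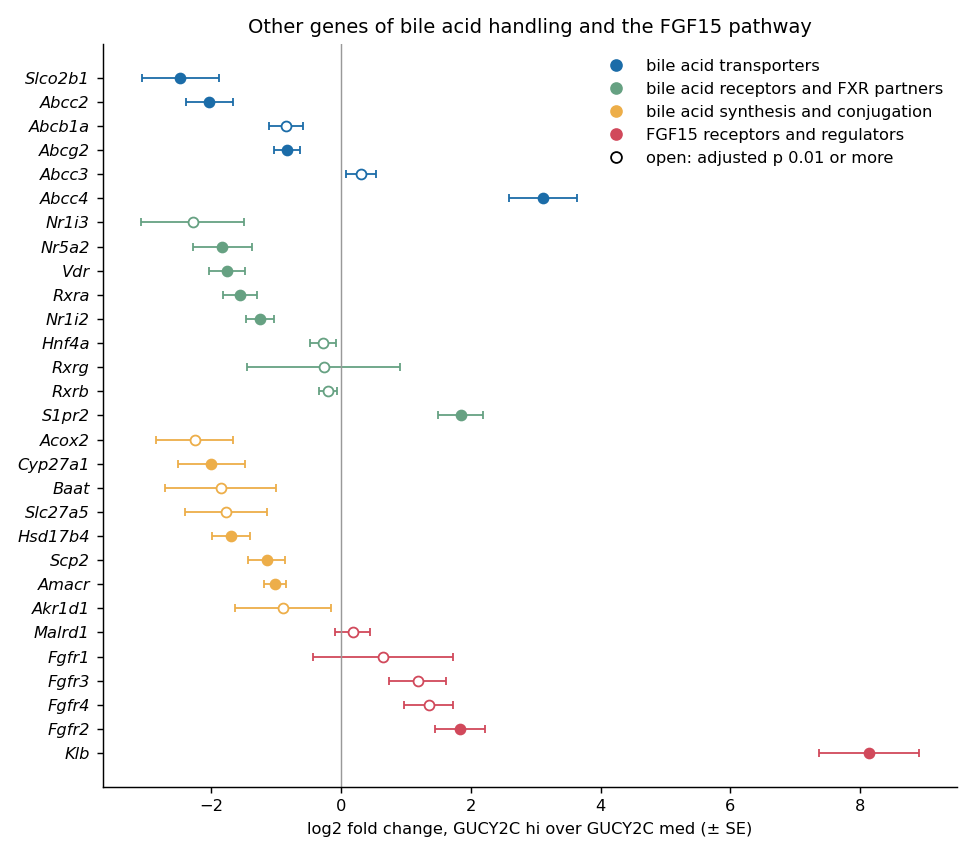
Log2 fold change of GUCY2C hi over GUCY2C med cells with its SE for the 29 tested pathway genes, coloured by list, filled where the adjusted p was under 0.01. Klb stands apart at 8.13, a fitted value that rests on 2 counts in GUCY2C med cells, and 4 filled points lie above 0 and 11 below.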

How the data were processed

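RNA was sequenced from GUCY2C hi and GUCY2C med cells of 5 mice, 5 libraries per group, which were grouped by sample title. The sequencing provider made the libraries with NEBNext Ultra II, aligned paired-end reads with STAR and counted them. The counter and its strand setting are not given in the sources used here. The deposited gene counts are whole, unnormalized numbers. The authors also deposited FPKM, which was used only to set genes side by side. The labels name mm9, but 99.9% of 37624 symbols in the table overlap their GRCm38 position and 9.69% of 28528 their NCBIM37 (mm9) position, so positions are on GRCm38. The submitters' notes list limma 3.40.6 and edgeR 3.26.8. Their comparison (fold changes and p-values, in 2 files and 3 further columns of the table) and 10 columns of provider-normalized values were not used.

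Fits were made with DESeq2 1.42.0, limma 3.58.1 and edgeR 4.0.16 under R 4.3.3. Tables were made with numpy 2.4.6, pandas 2.3.3 and scipy 1.17.1 under Python 3.11.15, and plots with matplotlib 3.10.9. The filter is the one the authors state, over 0.5 cpm in 3 or more libraries. TMM factors and the quasi-likelihood test of edgeR were used with the group as the only term, and a gene was called when its p, adjusted by Benjamini-Hochberg over all genes tested, was under 0.01. The code was tested on simulated data. The biological coefficient of variation was 0.458. A count of 0 allows up to 3 counts, and such floors and the exact 95% intervals cover counting error only, since no molecular identifiers were used. Marker ratios used log2 cpm with 0.5 counts added.

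The number in each label was taken as the mouse, because the labels say that 5 mice were sorted into both groups. Over all genes, deviations from the group mean correlated between libraries with the same number at r = -0.123, -0.254, 0.279, -0.132 and 0.0754 for mice 2, 7, 12, 14 and 15, so the data as a whole do not show this pairing. The highest r of each GUCY2C hi library with a GUCY2C med library of another number was 0.519, 0.278, 0.1, 0.43 and 0.392. It exceeded the r of the same number for all but mouse 12. Replicates are separate mice. The genes named are the 8 members, every gene of 4 pathway lists past the threshold, and the 3 genes most like each member, and further list genes are named beside them. The members, the pathway and marker lists and the motifs were chosen with earlier results of these data known. Other settings tried were DESeq2 and limma-voom, a replicate block for the mouse in edgeR and in limma-voom, scaling by library size only, by RLE or by upper quartile, a minimum of 10 counts in every library or no filter, an adjusted p under 0.05, each library left out, GUCY2C hi libraries 12 and 15 left out together, other marker lists, and counts per kilobase in place of FPKM.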

Additional observations from a re-analysis of the deposited data

How the results depend on the processing

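No result changed sign at a call. Beyond the values in the report, the fits differed as follows, and except where fewer libraries or genes entered, the cause was not tested. Of the 8 genes, 2 were called lower with limma-voom (11.4% of all genes were), DESeq2 (14.2%) or the replicate block in edgeR (4.96%). At an adjusted p under 0.05, 2 were lower as well, where Slc51a passed at -2.39, beside the larger count of all genes given below. With the replicate block in limma-voom 5 were lower (8.8% of all genes), among them Fabp6 at -3.03, Slc10a2 at -1.82, Slc51a at -3.56 and Fgf15 at -2.52. Without GUCY2C hi libraries 12 and 15, picked for their enterocyte markers, 5 were lower (13.9% of all genes), with these genes at -5.33, -3.97, -4.88 and -4.77. The block in edgeR called Slc10a2 at -2.15, and in neither tool did the pairing change the call of Slc51b, Nr1h4, Nr0b2 or Gpbar1. DESeq2 and limma-voom without a block called Slc51a at -2.36 and -3.44. With at least 10 counts in every library 0 of the 8 were higher, since Gpbar1, Fgf15, Fabp6 and Slc10a2 could not be tested.

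Leaving out each library in turn gave ranges of -3.53 to -1.16 for Fabp6, -2.41 to -0.97 for Slc10a2, -2.93 to -2.06 for Slc51a, -2.49 to -1.89 for Slc51b, -0.52 to -0.26 for Nr1h4, -1.03 to -0.58 for Nr0b2, -2.97 to -1.94 for Fgf15 and 5.46 to 6.36 for Gpbar1. The count called lower was 0 to 1 of the 8 and the count called higher 1 to 1, pathway genes were 4 to 5 higher and 6 to 12 lower, and all genes 1663 to 2546 higher and 506 to 1606 lower. Relative to enterocyte markers the range was -1.68 to -0.10 for Fabp6, -0.21 to 0.67 for Slc10a2, -1.23 to -0.77 for Slc51a, -0.22 to 0.03 for Slc51b, 1.71 to 2.48 for Nr1h4, 1.25 to 2.06 for Nr0b2, -1.39 to 0.19 for Fgf15 and 7.49 to 8.90 for Gpbar1.

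Over all genes the block in edgeR called 1294 higher and 779 lower, and an adjusted p under 0.05 called 3367 and 2767, beside 2186 and 1381 in the report's fit. Genes called lower numbered 2235 with DESeq2, 2181 without GUCY2C hi libraries 12 and 15, and 557 with library size only, which moved the median of all genes to 0.39. Of the pathway genes, 2 were higher and 6 lower with the block in edgeR, 2 and 7 with at least 10 counts in every library, and 6 were lower with library size only. Against distal markers Slc51a differed by -1.81 (SD 0.96) and Slc51b by -0.85, and against proximal markers Slc51b differed by 0.53. On the table length Slc51a was 253 on the FPKM scale. Fgf15, Nr0b2 and the GUCY2C med values of Gpbar1 and Klb had low counts. Fgf15 also ranged 23.7-fold between GUCY2C med libraries, so small differences were not detectable at this depth and spread between mice.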

Other observations

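Markers of the other cell types of the gut wall differed as follows between GUCY2C hi and GUCY2C med cells, by edgeR at an adjusted p under 0.01. Of all genes tested 13.9% were higher and 8.79% lower. Of 5 L cell markers 4 were higher, with Insl5 at 2.20 cpm and no count in GUCY2C med cells left uncalled. No goblet (8), Paneth (6) or crypt stem cell marker (6) was called, and of 6 tuft cell markers 1 was higher. Of 8 proliferation markers 6 were lower, with the list summing to between 86.3 and 208 cpm in GUCY2C hi and between 276 and 624 cpm in GUCY2C med cells. Of 8 distal enterocyte markers 2 were lower and of 8 proximal ones 1.

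Lists from outside the epithelium were low, with exceptions, and their calls stand beside the same shares of all genes. T cell markers summed to between 8.86 and 46.0 cpm in GUCY2C hi and between 7.31 and 38.7 cpm in GUCY2C med cells, and none of the 5 tested was called, as none of 3 tested myeloid markers was. Of 8 mesenchyme and endothelium markers 3 were tested and 2 were higher. Those 2, Col1a2 and Pecam1, had at most 0.225 cpm in GUCY2C med cells and passed the filter only through GUCY2C hi libraries. The 6 forebrain neuron markers, none of them called, summed to between 25.5 and 1141 cpm in GUCY2C hi and between 11.1 and 637 cpm in GUCY2C med cells. Of 6 hepatocyte markers 5 were tested and 3 were higher, Alb, Tat and Serpina1a, with sums of 11.3 to 75.5 cpm against 3.37 to 7.73 cpm. These 3 had at most 0.601 cpm in GUCY2C med cells and passed the filter only through GUCY2C hi libraries. A difference in this direction was therefore in part selected by the filter, as for Col1a2 and Pecam1. Cyp7a1, also on the hepatocyte list, was at 0 in every GUCY2C hi library.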
